A study of Mus musculus with 14 samples.

Results

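The data are poly(A) RNA-seq of mouse embryonic stem cells (ESCs) that carried Trincr1-/- or were wild type and had been grown in PD + LIF, 2 samples per genotype, which is 4 of the 14 samples of the series. The knockout samples of this medium were compared with the wild-type samples of the same medium over the genes whose mean exceeded 0.2 FPKM (fragments per kilobase of transcript and M mapped fragments, where M stands for 1e+06) across the 8 RNA-seq samples, 15430 of the 41204 genes in the deposited table. All ESCs came from a cross labelled C57BL/6(F) x 129/sv(M) and were derived at 3.5 days. The PD + LIF samples were plated for 24 h in 2i + LIF, which is N2B27 medium with 1 µM of the MEK inhibitor PD0325901, 3 µM of the GSK3 inhibitor CHIR99021 and 1000 units per ml of leukemia inhibitory factor (LIF), and then kept for 4 days in N2B27 with PD0325901 and LIF but without CHIR99021. The 4 samples in 2i + LIF, 2 wild type and 2 Trincr1-/-, served as the comparison medium. The knockout was made with a pair of guide RNAs against the sequence that flanks exons 2 to 4 of the gene. The sources do not say whether the 2 Trincr1-/- samples come from separate clones, and p-values measure the spread between these samples, which the series calls biological replicates.

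Trincr1 is a long noncoding RNA that was found by its association with TRIM71, an RNA-binding protein and ubiquitin ligase of stem cells and early embryos. ESCs in a naive state depend on LIF, which acts through STAT3, and are kept from differentiation by blocking MEK, the kinase that activates ERK. Inhibition of GSK3 stabilizes beta-catenin and so mimics Wnt signals, and in PD + LIF that support is withdrawn. The comparison asked what the loss of Trincr1 does to the transcriptome in that medium.

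By the steps between the lowest FPKM values, the 4 samples hold about 14.1 and 11.8 M fragments in wild type and 11.8 and 13.5 M in Trincr1-/- ESCs, so that 1 fragment on a transcript of 1000 bases is worth 0.071 to 0.0849 FPKM, and the FPKM sums lie between 497115 and 519651 over the 8 RNA-seq samples. The cells carried ESC markers throughout: the summed level of 12 markers was 3464 and 3170.1 FPKM in wild type and 2256 and 2448 FPKM in Trincr1-/- ESCs, with Pou5f1, the central pluripotency factor, at 413 and 420.4 FPKM against 373 and 354 FPKM. The summed level of 12 fibroblast markers was 10.4 and 13.4 FPKM in wild type and 18.4 and 15.4 FPKM in Trincr1-/- ESCs. Among these, Lum and Fap were listed at 0 in all 4 samples, and Dcn, Col3a1 and Twist2 in 3 of them, while Acta2 and Thy1 made up most of the sum. In bulk RNA, fewer cells with a transcript and less of it per cell cannot be told apart.

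The targeted gene is annotated as Gm2694 (ENSMUSG00000097248), a lincRNA on chromosome 8 from 87472812 to 87525554 in GRCm38, the build that the coordinates of the deposited table follow. In PD + LIF it was measured at 6.18 and 6.56 FPKM in wild type and at 1.38 and 0.746 FPKM in Trincr1-/- ESCs. Both knockout samples lie below both wild-type samples, and the log2 difference was -1.85 (standard error 0.23, adjusted p = 0.00535). In 2i + LIF the knockout samples were at 0.0754 and 0 FPKM against 5.7 and 9.45 FPKM, a log2 difference of -3.01 (adjusted p = 0.00317). The remaining signal in PD + LIF was above that in 2i + LIF, but the difference of the effect between the media missed the threshold (log2 difference 1.16, adjusted p = 0.125). Of 15 other genes tested within 1 Mb of Gm2694, 2 were called, which is near the 12.1% called among all genes tested. Both were higher: Heatr3 (log2 difference 0.24, adjusted p = 0.0357) and Nkd1, a feedback inhibitor of Wnt signals (0.98, adjusted p = 0.00746). Cbln1, a secreted synaptic protein encoded close by, was at 2.89 and 2.64 FPKM in wild type and 3.96 and 3.61 FPKM in Trincr1-/- ESCs (adjusted p = 0.214).

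Trincr1 knockout in PD + LIF went with higher levels of 970 genes and lower levels of 891 genes (limma on log2(FPKM + 1), adjusted p under 0.05), which is 6.29% and 5.77% of the genes tested, or 12.1% together. Because 1 FPKM was added before the logarithm, a difference understates the change of genes with low levels. The median size of a called log2 difference was 0.48, 986 of the 1861 were under 0.5, 77 genes were above 1 and 73 below -1, while the median over all genes tested was 0.010. The values of the 2 genotypes do not overlap in 57.7% of all genes tested, so a gap between the groups is in itself no mark of a changed gene here. The count depended on the samples: it was 335 without Trincr1-/- replicate 1, 470 without wild-type replicate 1, 709 without wild-type replicate 2 and 764 without Trincr1-/- replicate 2, and 316 when only the 4 PD + LIF samples were fitted. The balance of the directions turned in some of these fits, with 142 higher and 193 lower without Trincr1-/- replicate 1, 215 and 255 without wild-type replicate 1, and 140 and 176 in the fit of 4 samples. It also turned without a variance trend (660 and 718) and by a 2-fold rule on the group means (224 and 268), while other scalings and added constants kept more genes higher than lower. Of the 1861 calls, 249 were made in each of the fits that left out 1 sample, and 300 in the fit of 4 samples. The share called rose with the level, from 4.84% of genes with a mean of 0.2 to 1 FPKM to 21.2% of those over 25 FPKM. A further 12 genes differed by more than any called gene but varied between replicates, and 11 of them are pseudogenes, snRNAs or snoRNAs.

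**Figure D1:**
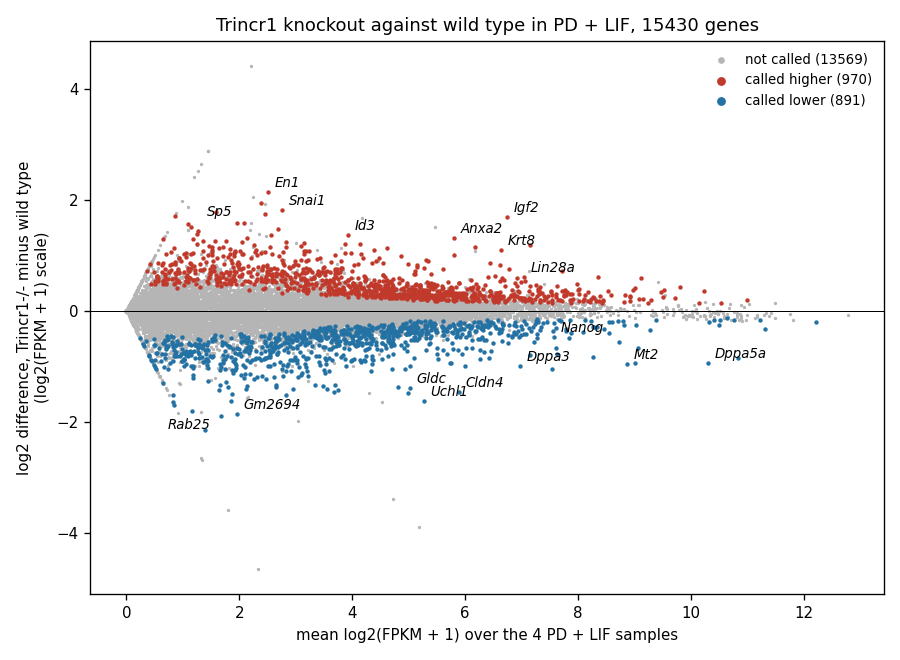
Log2 difference between Trincr1-/- and wild-type ESCs in PD + LIF (vertical axis) against the mean log2(FPKM + 1) of the 4 samples (horizontal axis), 1 point per gene, for 15430 genes. The 970 genes called higher are red and the 891 called lower are blue; En1 at the top (2.14), Igf2 and Anxa2 at high levels, and Gm2694 (-1.85), Rab25, Uchl1, Cldn4 and Gldc at the bottom stand out from the cloud around 0.

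Among the 20 genes with the largest rise were transcription factors of embryonic patterning. En1, an engrailed homeobox factor of the midbrain and hindbrain border, was at 1.36 and 2.08 FPKM in wild type and 11.9 and 9.97 FPKM in Trincr1-/- ESCs. Its log2 difference was 2.14 (standard error 0.18, adjusted p = 0.0021), the largest among the called genes, and its 2i + LIF samples were all at or below 0.374 FPKM. Pax2, a paired box factor of kidney and brain, went from 0.309 and 0.296 FPKM to 2.47 and 2.97 FPKM, and Hes3, a bHLH repressor of neural precursors, from 0.353 and 0.58 FPKM to 2.64 and 3.29 FPKM. Hand1, a bHLH factor of trophoblast and heart, was at 0.465 and 0.481 FPKM in wild type and 2.82 and 2.92 FPKM in the knockout. The log2 differences were 1.51, 1.43 and 1.39 for Pax2, Hes3 and Hand1 (adjusted p = 0.00203, 0.00279 and 0.00188). The 20 genes were picked among those whose values do not overlap between the genotypes, so the gap between the groups is not a result.

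Igf2, the imprinted fetal growth factor, was the most abundant of the 20, with 52 and 65.3 FPKM in wild type and 202 and 180.5 FPKM in Trincr1-/- ESCs (log2 difference 1.7, standard error 0.13, adjusted p = 0.0017). Ptn, which encodes the growth factor pleiotrophin, was at 1.97 and 2.03 FPKM against 10.3 and 8.06 FPKM, and Cacna1g, a subunit of T-type calcium channels, at 1.75 and 1.2 FPKM against 7.58 and 5.3 FPKM. Anxa2, an annexin that binds membranes in a calcium-dependent way, was at 32.5 and 36.2 FPKM in wild type and 89.1 and 84 FPKM in the knockout (log2 difference 1.31, adjusted p = 0.000906), and its relative Anxa1 at 2.49 and 2.8 against 9.03 and 7.9 FPKM. Pcdh18, a protocadherin, was at 1.72 and 1.85 against 6.36 and 5.55 FPKM. Csf1, a macrophage growth factor, stayed low, at 0.201 and 0.748 against 3.28 and 1.97 FPKM, and Clvs2, a lipid-binding protein, likewise at 0.144 and 0.34 against 2.91 and 2.45 FPKM. Spata45 and the pseudogene Gm9763 were listed at 0 in both wild-type samples, and at 2.03 and 2.53 and 1.53 and 1.4 FPKM in the knockout. The pseudogene Gm6142 was listed at 0 in 1 wild-type sample and at 1.59 FPKM in the other, against 4.78 and 4.31 FPKM, and how the authors' counting divided reads between pseudogenes and their parents is not stated. Of the 20 rises, 17 were called in each fit with 1 sample left out. The exceptions were Clvs2, Csf1 and Gm6142.

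The 20 largest falls hold Gm2694 itself and a group of epithelial genes that is described below. Appbp2os, annotated as antisense to Appbp2, from which its reads cannot be told apart unless strand was counted, which is not stated, was at 4.28 and 4.74 FPKM in wild type and 0.549 and 0.0082 FPKM in Trincr1-/- ESCs (log2 difference -2.14, adjusted p = 0.00998). Uchl1, a deubiquitinating enzyme of neurons and germ cells, was at 62.3 and 71.7 against 23 and 19.2 FPKM (-1.62, standard error 0.13, adjusted p = 0.00188). Gldc, the glycine decarboxylase of the mitochondrial glycine cleavage system, was at 49.7 and 53.6 against 18.8 and 19.3 FPKM (-1.39, standard error 0.066, adjusted p = 0.000492). In both genes the replicates lie close together, while the gap between the genotypes was a condition for being among the 20. Acss1, a mitochondrial acetyl-CoA synthetase, was at 24.7 and 17.7 against 6.67 and 7.81 FPKM, Abcg1, a cholesterol exporter, at 11.8 and 11.5 against 3.23 and 4.37 FPKM, and Sept1, a septin, at 53.6 and 49.9 against 20.3 and 16 FPKM. Lrrc31, a leucine-rich repeat protein, had close replicates, at 20.03 and 20.1 FPKM in wild type and 6.72 and 6.67 FPKM in the knockout. Camk2n1, an inhibitor of the kinase CaMKII, was at 4.34 and 3.82 against 0.823 and 0.986 FPKM, and Slc15a2, a peptide transporter, at 7.46 and 3.78 against 1.07 and 1.08 FPKM. The scaffold protein Pdzk1 was at 11.1 and 10.8 against 2.58 and 3.9 FPKM. Klk1, a kallikrein, was at 2.06 and 1.94 FPKM in wild type, listed at 0 in 1 knockout sample and at 0.114 FPKM in the other. The pseudogenes Gm7429 and Gm20689 were listed at 0 in both knockout samples, against 1.67 and 2.63 and 3.42 and 1.34 FPKM in wild type. Of the 20 falls, 13 were called in each fit with 1 sample left out. Among those that were not are Appbp2os, Mt4, Gm20689, Slc15a2, Pdzk1 and B230206L02Rik.

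**Figure D2:**
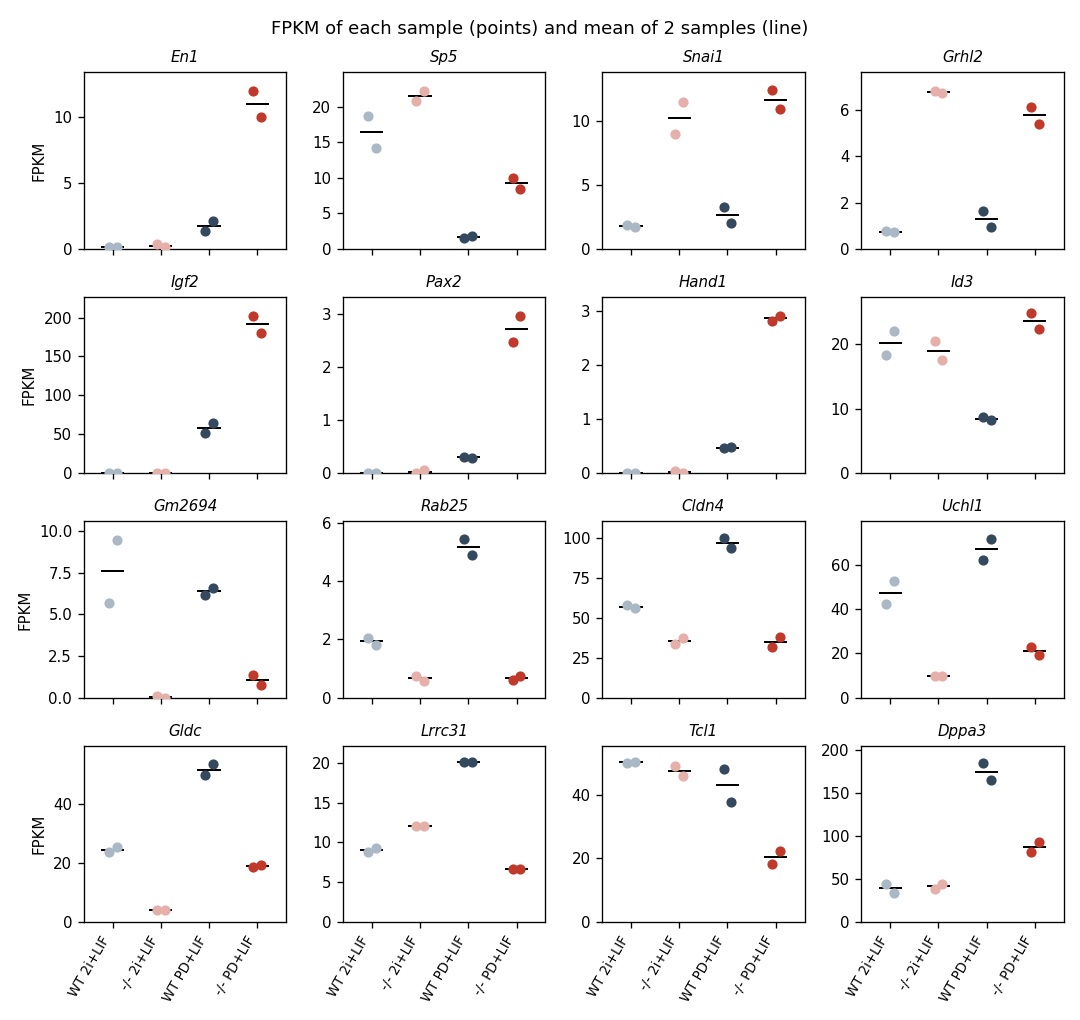
FPKM (vertical axes, each from 0) of 16 genes in each of the 8 samples, grouped on the horizontal axis by genotype (WT, wild type; -/-, Trincr1-/-) and medium, with a line at the mean of the 2 samples. In PD + LIF the knockout points lie above the wild-type points for the 8 genes in the top rows, from En1 to Id3, and below them for the 8 in the bottom rows; Snai1, Grhl2, Uchl1 and Gldc are also apart in 2i + LIF, while Igf2, Pax2 and Hand1 are near 0 there.

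The members of 34 gene lists were chosen with earlier results of these data known. Of 650 members tested, 211 were called. A share above the 12.1% of all genes is thus in itself no result about a list. The share called also rose with the level, to 21.2% of genes over 25 FPKM. This applies to every list of abundant genes below, and no list was matched for level. The naive state of ESCs is held by a set of transcription factors. Of 18 naive factors and markers tested, 9 fell and none rose (50%, beside 12.1% of all genes). The median over the list was -0.35, against 0.010 over all genes. Nanog was at 236 and 209 FPKM in wild type and 151 and 169 FPKM in the knockout (-0.47, adjusted p = 0.00876), Esrrb at 109 and 109 against 68.5 and 77.8 FPKM (-0.57, adjusted p = 0.00333), and Tfcp2l1 at 24.2 and 21.5 against 13.1 and 14.3 FPKM (-0.69, adjusted p = 0.00363). Dppa3, a maternal factor that protects DNA methylation in the zygote, and Tcl1, a coactivator of AKT, had the largest falls, from 185 and 165 to 82 and 93.9 FPKM and from 48.1 and 37.7 to 18.3 and 22.4 FPKM. The other falls were those of Klf2 (-0.48), Jam2 (-0.43), Fbxo15 (-0.36) and Nr5a2 (-0.33). The other 9, among them Klf4, Klf5, Tbx3 and Zfp42, did not pass the test, with log2 differences from -0.38 for Prdm14 to 0.28 for Gbx2. The list held 4 calls without Trincr1-/- replicate 1 or without wild-type replicate 1, and 6 or 7 without either of the other samples; Esrrb, Tfcp2l1, Fbxo15 and Tcl1 were called in all of these fits.

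Genes of pluripotency in general moved less evenly. Of 14 core genes, 4 were higher and 3 lower (50%, beside 12.1% of all genes), with a median of -0.037. Pou5f1 (-0.20) and Sox2 (-0.29) fell a little and Dppa5a, an RNA-binding protein that was the most abundant of them, fell from 1909.5 and 1597 to 820.0 and 1024 FPKM (-0.93, adjusted p = 0.00516). Lin28a, which blocks the maturation of let-7 microRNAs, rose from 99 and 112 to 167 and 156 FPKM (0.61, adjusted p = 0.0037), and Sall4 (0.39), Sall1 (0.23) and Trim28 (0.26) rose too. The list held 2 calls without Trincr1-/- replicate 1, 3 without wild-type replicate 1 or 2, and 5 without Trincr1-/- replicate 2. Of 24 genes of the let-7 and microRNA machinery 7 rose and none fell (29.2%, beside 12.1% of all genes), among them Hmga2 (0.75), Dgcr8 (0.41), Igf2bp1 (0.27) and Trim71 itself, at 30.8 and 31.5 FPKM in wild type and 37.3 and 37.7 FPKM in Trincr1-/- ESCs (0.26, adjusted p = 0.0259). This list held 1 call without Trincr1-/- replicate 1 or wild-type replicate 1 and 2 without either of the others, and 1 of those made without wild-type replicate 2 was lower. Trim71 was not called in every fit with 1 sample left out, and Lin28a was.

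Markers of the formative and primed epiblast, the state into which naive ESCs pass when they leave self-renewal, rose more often than they fell. Of 22 tested, 11 rose and 2 fell (59.1%, beside 12.1% of all genes), and the median was 0.55. Fgf15 was at 2.5 and 3.08 FPKM in wild type and 7.43 and 6.42 FPKM in Trincr1-/- ESCs (1.07, adjusted p = 0.00582), Cdh2, the neural cadherin, at 2.05 and 2.6 against 5.54 and 5.32 FPKM (0.96, adjusted p = 0.00809), and Dnmt3b, a de novo DNA methyltransferase, at 65.4 and 79.4 against 137 and 122 FPKM (0.83, adjusted p = 0.00389). The transcription factors Sox3 (0.78), Sox4 (0.62), Sox11 (0.56), Sall2 (0.65) and Zic2 (0.57) rose with them. Defining genes of the primed state were not called: Fgf5 was at 1.12 and 1.45 FPKM in wild type and 1.93 and 1.99 FPKM in the knockout (adjusted p = 0.0948), Otx2 had a log2 difference of 0.27 (adjusted p = 0.281) and Pou3f1 of 0.39 (adjusted p = 0.0911). Nodal (-0.61) and Igfbp2 (-0.33) fell. The list had 4 calls without Trincr1-/- replicate 1 or wild-type replicate 1 and 7 or 8 without either of the others, and Grhl2, Dnmt3b and Zic2 were called each time. Of 19 DNA methylation genes 4 rose and 1 fell (26.3%, beside 12.1% of all genes), with a median of 0.11. Besides Dnmt3b, the rises were those of Dnmt3l (0.37), Tet3 (0.63) and Trim28, and Tet1 fell (-0.30). With 1 sample left out the median was 0.085 to 0.16, and the fall of Tet1 was not called in any of these fits.

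Genes of several later lineages were called higher and almost none lower. Among 20 neural genes 7 rose and none fell (35%, beside 12.1% of all genes), and among 15 endoderm genes 6 rose (40%). Among 15 genes of primitive streak and mesoderm 4 rose (26.7%), and among 18 trophoblast genes 7 rose and 1 fell (44.4%). En1 and Ptn led the neural genes, followed by Gap43, a growth cone protein, at 17.9 and 21.7 against 42 and 38.2 FPKM, Sox1 at 4.62 and 5.12 against 9.97 and 8.56 FPKM, and Wnt1, Pax3 and Stmn2, of which the first pair stayed at or below 1.3 FPKM. Pax6 (0.39, adjusted p = 0.177) and Nes (0.088, adjusted p = 0.609) were not called. Of the mesoderm genes, T (0.0389 and 0.186 against 0.495 and 0.326 FPKM, adjusted p = 0.19) and Eomes (-0.43, adjusted p = 0.0531) were not called. The rises were those of Hand1, Msx1 (0.832 and 0.996 against 4.07 and 3.19 FPKM), Msx2 and Bmp4. The endoderm rises were mostly basement membrane genes, Col4a1 (0.69), Lamb1 (0.48), Lamc1 (0.47) and Sparc (0.31), with Cxcr4 and Foxa2 at low levels (0.504 and 0.367 against 1.86 and 1.5 FPKM for Foxa2), while Gata4 had a log2 difference of -0.0044 (adjusted p = 0.995). Cdx2 (0.085, adjusted p = 0.739) was not called among the trophoblast genes, and the rises there were Gata2 (4.23 and 3.23 against 7.55 and 10.4 FPKM), Ascl2, Plac1, Peg10, Hand1 and the keratins Krt8 and Krt18. Without Trincr1-/- replicate 1 the 4 lists held 6, 2, 1 and 4 calls, and without wild-type replicate 1 they held 5, 1, 1 and 6, in the order neural, endoderm, mesoderm, trophoblast. Of 23 genes of the two-cell-like state, 4 were tested and none was called.

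**Figure D3:**
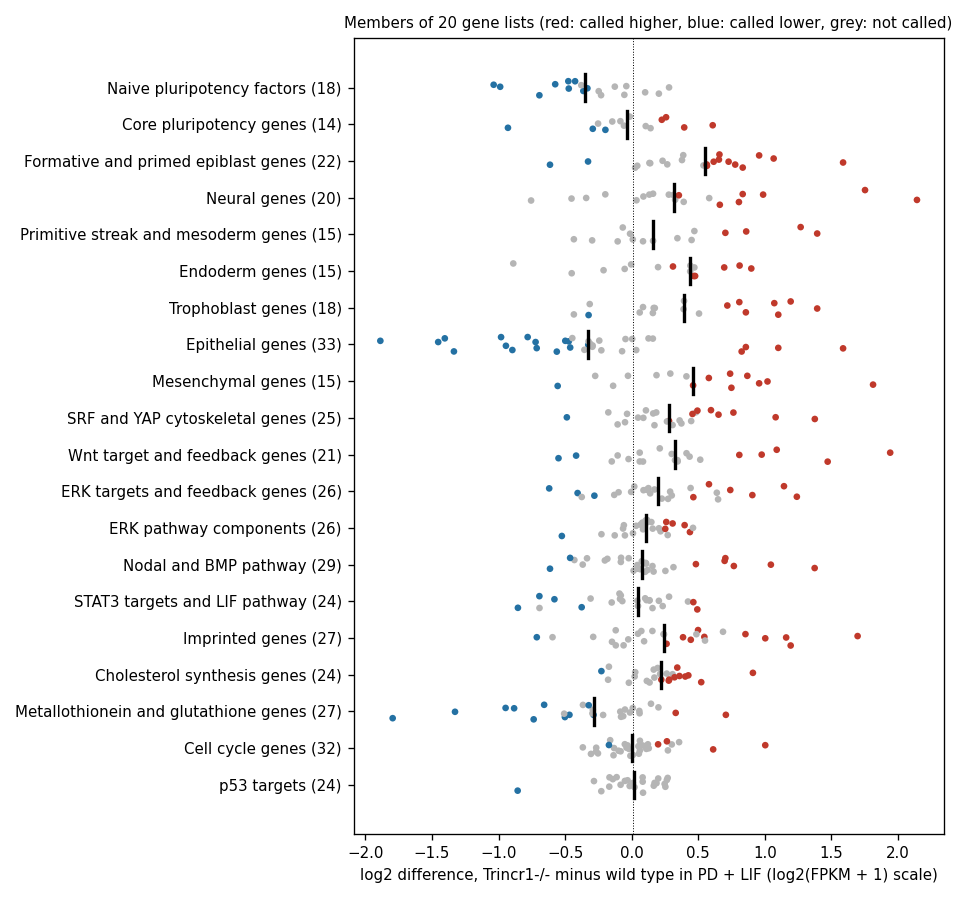
Log2 difference between Trincr1-/- and wild-type ESCs in PD + LIF (horizontal axis) of the members of 20 gene lists, with the number tested in brackets, 1 point per gene (red, called higher; blue, called lower; grey, not called), a bar at each list's median and a dotted line at the median of all genes (0.010). The naive and epithelial lists lie mostly to the left with medians of -0.35 and -0.33, the formative list to the right with 0.55, and the cell cycle and p53 lists around 0.

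Epithelial genes were divided into a larger group that fell and a few that rose. Of 33 tested, 15 fell and 4 rose (57.6%, beside 12.1% of all genes), with a median of -0.33. Most of those that fell encode proteins of junctions and cell polarity. Rab25, a small GTPase of apical recycling, was at 5.43 and 4.89 FPKM in wild type and 0.59 and 0.738 FPKM in Trincr1-/- ESCs (-1.89, standard error 0.13, adjusted p = 0.00136). Cldn4, a claudin of tight junctions, was at 100.4 and 93.8 against 32 and 37.9 FPKM (-1.45, standard error 0.090, adjusted p = 0.00103), and Tjp3, the scaffold ZO-3, at 18.2 and 18.2 against 6.02 and 6.47 FPKM (-1.4, adjusted p = 0.00203). Crb3, an apical polarity protein, was at 17.6 and 22 against 5.9 and 8.72 FPKM (-1.34), Cldn6 at 46 and 43.8 against 22.2 and 22.2 FPKM (-0.98), and Epcam at 56 and 61.2 against 35.5 and 31.9 FPKM (-0.78). E-cadherin, encoded by Cdh1, fell less, from 143 and 142 to 112 and 115 FPKM (-0.33, adjusted p = 0.00952), and the membrane protease gene St14 (-0.94) and Spint2, which encodes an inhibitor of such proteases (-0.46), fell as well. The 4 that rose were the keratins Krt8 (62 and 71.8 against 147 and 142 FPKM, 1.1), Krt18 (0.86) and Krt19 (0.83), intermediate filament proteins of simple epithelia, and Grhl2, a transcription factor known to activate junction genes, at 1.63 and 0.937 against 6.16 and 5.42 FPKM (1.59, adjusted p = 0.00288). Tjp1 (0.13), Ocln (-0.32) and Esrp1 (-0.31) did not pass the test. The list held 9 calls without Trincr1-/- replicate 1, 10 without wild-type replicate 2, 12 without wild-type replicate 1 and 14 without Trincr1-/- replicate 2.

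Snai1, a zinc finger repressor that binds E-boxes in promoters of epithelial genes, was among the largest rises, from 3.24 and 2.06 FPKM in wild type to 12.4 and 11 FPKM in Trincr1-/- ESCs (1.81, standard error 0.18, adjusted p = 0.00288). Its core motif, CAGGTG on either strand, was searched in the 250 bases before the start of each gene in the windows of RefSeq (GRCm38.p6). Of 23 epithelial genes with a window, 15 hold it (65.2%), against 19.4% of the 27025 genes with a window and 19.3% of the 10313 genes tested that have one. Among genes called lower it was found in 29% of 651, and among genes called higher in 14.7% of 715. Of the epithelial genes called lower 9 of 11 hold it, and Krt8 and Krt18, which rose, hold it too. So do Cldn7, Elf3, Krt7 and Ocln, which were not called, and 3 of 5 Wnt target genes called higher. The windows of 4 genes that fell and of Krt8 are printed from 5′ to 3′ on the strand of the gene, with the motif in capitals, to show where the match lies in genes that moved in opposite directions. Where a gene has several windows, the one with the most matches is shown. They lie at chr3:88548280-88548529 for Rab25, chr5:134946935-134947184 for Cldn4, chr10:81291582-81291831 for Tjp3, chr17:57061951-57062200 for Crb3 and chr15:102004343-102004592 for Krt8, on the minus strand except for Crb3.
Rab25: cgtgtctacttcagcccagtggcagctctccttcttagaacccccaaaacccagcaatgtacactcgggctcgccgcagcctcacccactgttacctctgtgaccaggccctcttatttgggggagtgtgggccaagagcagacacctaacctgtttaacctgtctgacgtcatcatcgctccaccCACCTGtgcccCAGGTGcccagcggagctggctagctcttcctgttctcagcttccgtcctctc
Cldn4: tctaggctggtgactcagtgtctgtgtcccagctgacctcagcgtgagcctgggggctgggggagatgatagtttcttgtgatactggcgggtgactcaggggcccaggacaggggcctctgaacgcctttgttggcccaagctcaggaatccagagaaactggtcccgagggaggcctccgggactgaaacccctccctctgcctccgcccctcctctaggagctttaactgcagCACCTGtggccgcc
Tjp3: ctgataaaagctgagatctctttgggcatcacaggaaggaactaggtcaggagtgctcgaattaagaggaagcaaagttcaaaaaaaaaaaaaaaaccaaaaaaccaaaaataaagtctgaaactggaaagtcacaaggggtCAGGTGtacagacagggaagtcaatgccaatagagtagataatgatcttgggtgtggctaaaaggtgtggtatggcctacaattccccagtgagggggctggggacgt
Crb3: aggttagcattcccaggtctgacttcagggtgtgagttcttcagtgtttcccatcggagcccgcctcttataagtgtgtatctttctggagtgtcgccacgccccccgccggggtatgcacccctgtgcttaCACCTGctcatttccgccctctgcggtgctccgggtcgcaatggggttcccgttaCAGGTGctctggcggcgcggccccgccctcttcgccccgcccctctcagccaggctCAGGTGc
Krt8: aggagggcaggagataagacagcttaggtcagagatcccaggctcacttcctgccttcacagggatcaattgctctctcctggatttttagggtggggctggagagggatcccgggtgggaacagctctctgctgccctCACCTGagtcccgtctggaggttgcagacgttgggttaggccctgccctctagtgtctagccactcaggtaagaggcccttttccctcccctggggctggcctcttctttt
A match of these letters says nothing about binding of SNAI1, which was not measured.

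Mesenchymal genes rose more often than not: of 15 tested, 8 rose and 1 fell (60%, beside 12.1% of all genes), with a median of 0.46. Vim, the filament protein vimentin, was at 72.4 and 95.8 FPKM in wild type and 150.3 and 132 FPKM in Trincr1-/- ESCs (0.75, adjusted p = 0.0122), Zeb2, a repressor of Cdh1, at 1.31 and 2.17 against 3.94 and 3.93 FPKM (0.87), and the proteases Mmp14 (0.74) and Mmp2 (0.58) and the integrin Itga5 (0.46) rose too. Fn1, the matrix protein fibronectin and a classical mesenchymal marker, fell, from 186 and 173 to 121 and 122 FPKM (-0.56, adjusted p = 0.00305). Twist1 (0.19) and Zeb1 (-0.14) were not called. The list held 3 calls without Trincr1-/- replicate 1 and 5 to 7 without any other single sample, and Snai1, Mmp14 and Fn1 were called each time. Of 25 genes under SRF and YAP, 8 rose and 1 fell (36%, beside 12.1% of all genes). Those that rose include Anxa1, Anxa3 (1.08), Zyx (0.76), Lmna (0.65) and Tpm4 (0.60), and Cnn3 fell (-0.49). That list held 2 calls without Trincr1-/- replicate 1, 4 without Trincr1-/- replicate 2 or wild-type replicate 1 and 7 without wild-type replicate 2, 1 of them lower each time. The best known YAP targets Ctgf (-0.050) and Cyr61 (0.11) were not called. Col1a1, the member of the fibroblast markers that rose, remained at 1.95 and 1.82 FPKM.

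The Wnt targets Sp5 and Axin2 were among the 20 largest rises, while most members of their list were not called. Beta-catenin in the nucleus activates its targets together with TCF and LEF factors, and the products of Axin2, Nkd1 and Rnf43, which are such targets, restrain the pathway. Sp5, a zinc finger factor that is a direct target, was at 1.51 and 1.81 FPKM in wild type and 10.01 and 8.43 FPKM in Trincr1-/- ESCs (1.94, standard error 0.14, adjusted p = 0.0017). Axin2 was at 3.12 and 2.6 against 8.51 and 11 FPKM (1.47, standard error 0.13, adjusted p = 0.00254). In both genes the knockout samples in PD + LIF remained below the wild-type samples in 2i + LIF, which contains the GSK3 inhibitor, at 18.8 and 14.2 FPKM for Sp5 and 23.3 and 23.2 FPKM for Axin2. Tnfrsf19 (2.33 and 2.36 against 6.43 and 5.82 FPKM, 1.09), Nkd1 and Ascl2 (0.81) rose as well, while Tcf7 (24.8 and 24.7 against 17.2 and 16 FPKM, -0.55) and Lrig1 (-0.42) fell. The remaining 14 of 21 targets were not called, among them Lef1 (0.51), Rnf43 (0.43), T and Cdx1 (-0.11). The share of targets called was 33.3%, beside 12.1% of all genes, and the median was 0.32. The list held 3 to 5 calls with 1 sample left out, all higher, and Sp5, Axin2 and Tnfrsf19 were called each time. Of 27 pathway components 4 rose and 1 fell (18.5%, beside 12.1% of all genes), and 2 or 3, all higher, were called with any 1 sample left out. The rises were those of the receptor Fzd2 (13.8 and 15.8 against 29.4 and 27.3 FPKM), the secretion factor Wls (10.5 and 12.2 against 21.3 and 20.4 FPKM), Dvl3 and the repressor Tcf7l1 (0.45), and the ligand Wnt5a fell (-0.58). Ctnnb1, which encodes beta-catenin, had a log2 difference of 0.059 (adjusted p = 0.567).

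The TCF and LEF motif, CTTTGAT or CTTTGAA on either strand, occurs in the 250 bases before the start in 4 of 14 Wnt target genes with a window, Sp5, Tnfrsf19, Dkk1 and T, against 8.63% of all 27025 genes with a window; Axin2 holds no match in its window. The motif was found in 6.29% of genes called higher and in 4.61% of those called lower, beside 6.22% of the 10313 genes tested that have a window. The windows of the pair that rose are shown with the motif in capitals, at chr2:70474673-70474922 on the plus strand for Sp5 and chr14:61037988-61038237 on the minus strand for Tnfrsf19 in GRCm38.p6.
Sp5: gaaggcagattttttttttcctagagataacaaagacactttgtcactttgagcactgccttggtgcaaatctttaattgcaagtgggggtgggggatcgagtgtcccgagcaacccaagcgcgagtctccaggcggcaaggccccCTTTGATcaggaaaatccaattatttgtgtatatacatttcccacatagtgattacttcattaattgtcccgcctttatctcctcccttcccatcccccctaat
Tnfrsf19: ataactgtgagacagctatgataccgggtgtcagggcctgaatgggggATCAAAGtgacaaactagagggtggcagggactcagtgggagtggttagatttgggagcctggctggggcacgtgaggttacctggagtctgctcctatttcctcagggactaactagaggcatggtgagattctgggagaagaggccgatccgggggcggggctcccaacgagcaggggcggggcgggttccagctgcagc
Regions farther from the start, where many such sites lie, were not searched.

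The Id genes, targets of bone morphogenetic protein (BMP) signals, rose in Trincr1-/- ESCs. BMP ligands act through SMAD1 and SMAD5 on these genes, which encode inhibitors of bHLH transcription factors. Id3 was at 8.75 and 8.22 FPKM in wild type and 24.8 and 22.4 FPKM in Trincr1-/- ESCs (1.37, standard error 0.11, adjusted p = 0.00203), Id1 at 8.11 and 12.1 against 21.8 and 21.3 FPKM (1.05, adjusted p = 0.0128) and Id2 at 4.06 and 5.41 against 8.8 and 8.59 FPKM (0.77, adjusted p = 0.0498, just inside the threshold). The ligand Bmp4 (1.41 and 2.04 against 3.79 and 3.06 FPKM), Smad5 (0.48) and Fst, a secreted antagonist (0.70), rose. Nodal, at 12.3 and 11.8 against 8.23 and 6.91 FPKM, and Pcsk6, the protease that activates it (-0.46), fell, and the Nodal targets Lefty1 (-0.43, adjusted p = 0.109) and Lefty2 (-0.34, adjusted p = 0.281) were not called. The receptors Bmpr1a (0.10), Bmpr2 (0.075), Acvr1b (-0.080) and Acvr2b (0.042) were not called. The share of the Nodal and BMP list that was called was 27.6%, beside 12.1% of all genes. The list had 8 calls of 29, and 3, 2, 1 and 5 without Trincr1-/- replicate 1, Trincr1-/- replicate 2, wild-type replicate 1 and wild-type replicate 2; Id3 was called each time.

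The genes through which fibroblast growth factors (FGF) reach ERK showed small differences. Of 26 components 5 rose and 1 fell (23.1%, beside 12.1% of all genes and 21.2% of those over 25 FPKM), and the median was 0.11. With any 1 sample left out, Fgf4 was the sole call of this list and none of the 5 rises was called. The receptor Fgfr1 was at 47.1 and 48.5 FPKM in wild type and 65.8 and 64.4 FPKM in Trincr1-/- ESCs (0.44, adjusted p = 0.0111), Ptpn11, the phosphatase SHP2, had a log2 difference of 0.40, and Shcbp1, an SHC-binding protein, of 0.31 (adjusted p = 0.0447); Trim71, which the list also holds, is given above. The main ligand of ESCs, Fgf4, fell from 82.8 and 81.3 to 54.6 and 58.9 FPKM (-0.52, adjusted p = 0.00266). Mapk3 (0.080) and Map2k1 (-0.065), which encode an ERK and a MEK, were not called.

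Of 26 targets and feedback genes of ERK, 6 rose and 3 fell (34.6%, beside 12.1% of all genes), with a median of 0.20. Emp1, a membrane protein, was at 3.35 and 3.86 FPKM in wild type and 10.7 and 9.1 FPKM in Trincr1-/- ESCs (1.24, adjusted p = 0.00519), Myc at 3.6 and 3.95 against 11 and 8.29 FPKM (1.14, adjusted p = 0.00975), Phlda1 at 0.945 and 1.28 against 3.39 and 2.54 FPKM (0.91) and the inhibitor Spred1 at 5.33 and 5.04 against 9 and 7.54 FPKM (0.58). Etv1 (0.74) and Junb (0.46) rose too. In contrast, Etv5, a factor induced by FGF, fell from 66 and 72.9 to 51.7 and 52.5 FPKM (-0.41, adjusted p = 0.00665), Epha2 from 16.7 and 14.5 to 9.86 and 9.69 FPKM (-0.62) and Mcl1 by less (-0.28). The feedback inhibitors Dusp6 (1.57 and 1.98 against 2.4 and 2.28 FPKM, adjusted p = 0.304), Spry2 (0.44, adjusted p = 0.0687) and Spry4 (0.088) and the immediate early genes Fos (0.23) and Ier2 (0.14) were not called. The calls of this list depended on the samples: 0 of 26 were made without Trincr1-/- replicate 1, where limma gave 12 of them an unadjusted p under 0.05, and 2, 5 and 7 without wild-type replicate 1, wild-type replicate 2 and Trincr1-/- replicate 2. All samples were grown with the MEK inhibitor.

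Of 24 genes of the LIF and STAT3 pathway, 2 rose and 4 fell (25%, beside 12.1% of all genes and 21.2% of those over 25 FPKM). The kinase gene Pim1 fell from 62.5 and 58.7 to 30.3 and 36.1 FPKM (-0.85, adjusted p = 0.0037), with Icam1 (-0.58), Pim3 (-0.38) and Tfcp2l1, while Sgk1 rose (0.49) together with Junb. Socs3, the feedback inhibitor that reports STAT3 activity most directly, was at 32.4 and 32.3 FPKM in wild type and 32.8 and 34.2 FPKM in the knockout (adjusted p = 0.616), and Stat3 (0.13), Lifr (-0.15) and Il6st (0.043) were not called.

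**Figure D4:**
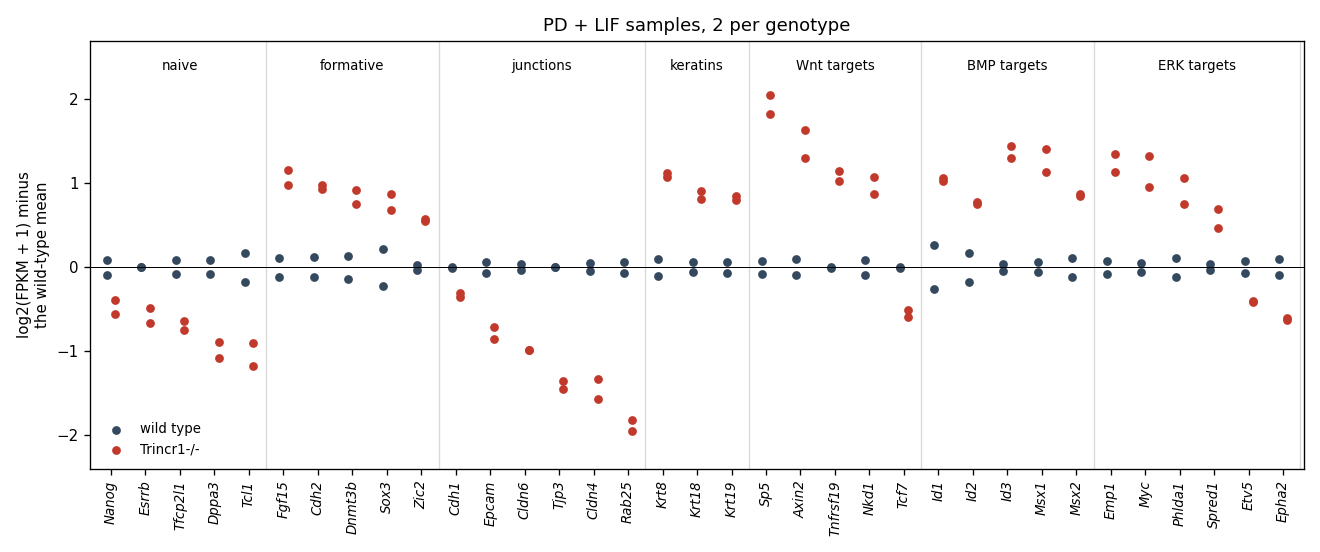
Log2(FPKM + 1) of each PD + LIF sample minus the mean of the 2 wild-type samples (vertical axis) for called genes of 7 groups (horizontal axis), with wild type dark and Trincr1-/- red. The knockout points of naive and junction genes lie below the wild-type points, those of formative genes, keratins and BMP targets above them, and the Wnt and ERK groups hold genes in either direction, such as Tcf7, Etv5 and Epha2 below 0.

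Imprinted genes, whose transcript comes from the allele of 1 parent, rose in 10 of 27 tested and fell in 1. Together these are 40.7%, beside 12.1% of all genes. Besides Igf2, Peg10, a retrotransposon-derived placental gene, was at 103 and 83.6 FPKM in wild type and 198 and 230.3 FPKM in Trincr1-/- ESCs (1.19), Mest at 45.7 and 49.5 against 114 and 101 FPKM (1.16, adjusted p = 0.000942), and Cdkn1c, a cell cycle inhibitor, at 42.7 and 34.9 against 72.1 and 85.1 FPKM (1.0, adjusted p = 0.00681). Grb10 (0.85), Phlda2 (0.55) and Gnas (0.44) rose, and so did the noncoding RNAs Meg3 (0.26), Rian (0.39) and Mirg (0.50) of a single cluster. H19, the noncoding RNA next to Igf2 that is transcribed from the opposite parental allele, fell from 104 and 118 to 68.5 and 66 FPKM (-0.71, adjusted p = 0.0126), so that this neighbouring pair moved in opposite directions. Both genes were near 0 in 2i + LIF, at no more than 0.791 FPKM in any sample. Igf2r (-0.15), Peg3 (0.24) and Kcnq1ot1 (0.047) were not called. The list held 7 to 10 calls with any single sample left out, all of them higher, so that H19 was not called in any of these fits.

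Of 24 genes of cholesterol synthesis and its control, 10 rose and 1 fell in PD + LIF. These calls are 45.8% of the list, beside 12.1% of all genes and 21.2% of those over 25 FPKM. For the knockout effect in 2i + LIF the median of the list had the opposite sign, at -0.17 against 0.22. Hmgcs1, a synthase early in the pathway, was at 129 and 146 against 189 and 181 FPKM (0.43, adjusted p = 0.0144), and Idi1, an isomerase of its isoprenoid steps, at 36.5 and 36.3 against 49.4 and 47.5 FPKM (0.40, adjusted p = 0.0049). Without Trincr1-/- replicate 1 the list held 2 calls and without wild-type replicate 1 it held 3, and Idi1 was called in every fit with 1 sample left out.

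Metallothionein and glutathione genes went the other way, with 10 of 27 lower and 2 higher (44.4%, beside 12.1% of all genes) and a median of -0.29. All 4 metallothioneins tested, small metal-binding proteins encoded side by side on chromosome 8, fell. Mt1 was at 655 and 687 FPKM in wild type and 433 and 417 FPKM in Trincr1-/- ESCs (-0.66, standard error 0.038, adjusted p = 0.000906) and Mt2 at 653 and 638 against 351 and 318 FPKM (-0.95, standard error 0.077, adjusted p = 0.00207). Mt3 (3.36 and 4.8 against 1.07 and 0.943 FPKM) and Mt4 (2.51 and 3.96 against 0 and 0.441 FPKM) were far less abundant. Gsr, glutathione reductase (-0.50), Gpx2 (-0.88), Gstm1 (-0.47) and Gsta4 (-0.32) also fell, and Gpx3 (0.71) and Hmox1 (0.33) rose. Nqo1 (-0.51, adjusted p = 0.108) and Gclm (-0.29) were not called. The list held 4 to 7 calls with any single sample left out, and Mt1, Mt2 and Gsr were called each time.

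In central metabolism, 6 of 25 genes of glycine, serine and folate metabolism fell and 1 rose (28%, beside 12.1% of all genes). Beside Gldc these were Cbs, a cystathionine synthase (8.56 and 11.5 against 3.15 and 5.48 FPKM, -1.08), Tdh (-0.35), Amt, another part of the glycine cleavage system (-0.35), Shmt1 (-0.35) and Psat1 (-0.23). Glycolysis genes were divided, with 7 of 28 higher, such as the glucose transporter Slc2a1 (253 and 277 against 412 and 396 FPKM, 0.61, adjusted p = 0.00279) and Ldha (0.37), and 5 lower, such as Ldhb (548 and 479.6 against 315 and 382 FPKM, -0.56) and Pdk1 (-0.60). The 12 glycolysis calls are 42.9% of the list, beside 12.1% of all genes, and 1 was left without Trincr1-/- replicate 1 or wild-type replicate 1, 6 without Trincr1-/- replicate 2 and 7 without wild-type replicate 2. The glycine, serine and folate list held 3, 4, 6 and 4 calls in the same order of samples. Gldc and Amt in the first list and Slc2a1 in the second were called in every fit with 1 sample left out.

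The remaining lists are given by their counts, beside the 12.1% called among all genes. Of 32 cell cycle genes 4 rose and 1 fell (15.6%, median -0.00061), and of 24 p53 targets 1 fell, Gdf15 (4.17%). Of 26 genes of ATF4 and the unfolded protein response 5 rose, led by the chaperone Hspa5 (127 and 132 against 186 and 172 FPKM, 0.46), and 2 fell, Ddit3 (-0.69) and Asns (-0.36). Of 18 germline genes that DNA methylation keeps silent 2 fell, Tuba3a (6.17 and 5.79 against 1.45 and 2.08 FPKM, -1.35) and Hormad1 (-0.85). Of 23 FOXO targets 3 rose, among them Cited2 (27.9 and 27.7 against 55.1 and 52.4 FPKM, 0.93, adjusted p = 0.00127), and 4 fell, among them Txnip (103 and 127 against 65 and 61.5 FPKM, -0.85). Of 27 matrix genes 6 rose and 2 fell, and of 19 genes of MHC class I and antigen processing 3 rose and 1 fell. Of the 12 ESC markers 6 fell and 2 rose. With 1 PD + LIF sample left out, the calls were 1 or 2 for the cell cycle genes, 2 to 5 for the genes of ATF4 and the unfolded protein response, 1 for the germline genes, 2 to 4 for the FOXO targets, 3 or 4 for the matrix genes, at most 2 for the MHC class I genes and 4 to 7 for the ESC markers, and the fall of Gdf15 was not called. Among the genes of the Bex family and Uchl1, Bex4 fell (-0.50), Ngfrap1 rose (0.35) and Bex1 stayed at 213 and 247 against 255 and 231 FPKM (adjusted p = 0.572).

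By type of gene, 13.3% of the 13330 protein-coding genes were called, 6.7% of the 388 lincRNAs and 2.81% of the 1139 pseudogenes. Of the 26 lincRNAs called, 17 were lower, Gm2694 among them, and 9 higher. The median log2 difference of protein-coding genes ranged from -0.019 on chromosome 17 to 0.040 on chromosome X. The share called higher was largest on chromosome 6, with 68 of 621 protein-coding genes (11%), and 36 (5.8%) were called lower there. Next were chromosomes 19 (9.5%) and 11 (8.9%), and of all 13330 protein-coding genes 939 were called higher. Ptn, Peg10, Mest, Gata2, Emp1 and Zyx lie on chromosome 6.

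The knockout contrast was also read against the transcripts that TRIM71 binds. RNA pulled down with FLAG-tagged TRIM71 in 2i + LIF and its input were deposited as 1 pooled FPKM value per transcript each, although the labels list replicates, and how these were combined is not stated. Each was also scaled to the mean of its own dataset. Bound here means more than 2 FPKM in the input and a ratio of the scaled pull-down to the scaled input of more than 3. Of 473 bound genes tested, 28 rose and 32 fell in PD + LIF, 12.7% together, against 15% of 8947 genes that were not bound. These shares are given as a description, since genes measured in the same samples are not independent. The median log2 differences were 0.011 and 0.0077. With a cutoff of 10, 4 of 82 genes were higher and 2 lower (7.32%). The targeted gene, which the study reports as bound by TRIM71, is not among the bound genes counted here. The counts above leave it out, and why it was missing was not tested. It is the gene that was knocked out, so its log2 difference of -1.85 is not read as an effect on a bound transcript. Among the bound genes counted and called, the largest differences, picked after their values were seen, were those of Kit and Cbs. Kit, a receptor tyrosine kinase, fell from 18.8 and 14.9 to 6.06 and 5.9 FPKM (log2 difference -1.35, enrichment 7.61). The enrichment of Cbs was 9.62.

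The effect of the knockout in PD + LIF was set beside that in 2i + LIF, where 54 genes were higher and 132 lower (1.21% of those tested). That count rests on a spread shared with the PD + LIF samples: when only the 2i + LIF samples were fitted, limma called 0 genes and gave 2106 an unadjusted p under 0.05. The difference of the effect between the media was tested in the same model, and it was called for 279 genes (1.81%), of which 153 had the higher effect in PD + LIF and 126 the lower. Of the 1861 genes called in PD + LIF, 234 passed this test. A gene called in PD + LIF and not in 2i + LIF is thus in most cases not shown to respond to the medium. The count fell to 13 without Trincr1-/- replicate 1 in PD + LIF, 23 without Trincr1-/- replicate 2, 26 without wild-type replicate 2 and 32 without wild-type replicate 1, so the number of such genes rests on all 4 samples. Of the 20 largest rises 13 passed, and of the 20 largest falls 6.

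The named patterning rises and the 3 keratins passed the test between the media, while of the 5 Wnt targets that rose Sp5 and Axin2 did, and of the 6 Nodal and BMP genes that rose Id2 and Id3. En1 (2.04), Sp5 (1.56), Igf2 (1.45), Id3 (1.46), Pax2 (1.47), Hes3 (1.39), Hand1 (1.36), Ptn (1.36) and Axin2 (1.09) had a higher effect in PD + LIF, and so had Krt18 (1.43), Krt19 (1.34) and Krt8 (1.29). En1, Igf2, Pax2 and Hand1 were near 0 in 2i + LIF, where the added 1 FPKM shrinks any difference. For them a low level in 2i + LIF and an effect that depends on the medium cannot be told apart. Among the genes with a lower effect in PD + LIF were Lrrc31 (-1.84, adjusted p = 0.00312), Kit (-1.37), S100a13 (-1.63), a calcium-binding protein whose effects were opposite, with -0.88 in PD + LIF and 0.75 in 2i + LIF, and the naive factors Dppa3 (-1.08), Tfcp2l1 (-0.75) and Esrrb (-0.67). In 2i + LIF none of the 18 naive factors and markers was called in either direction and the list's median was 0.028.

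Another group was changed in both media. Snai1 rose by 2.0 on the log2 scale in 2i + LIF, where it was at 1.88 and 1.71 FPKM in wild type and 8.98 and 11.5 FPKM in Trincr1-/- ESCs, and the difference between the media was -0.19 (adjusted p = 0.741). Grhl2 rose by 2.16 in 2i + LIF and Peg10 by 1.11. Of the 15 epithelial genes that fell in PD + LIF, 11 also fell in 2i + LIF, among them Crb3 (-1.97), Cldn6 (-1.34), Cldn3 (-1.15) and Epcam (-1.04), and the list's median was -0.49 there against -0.33 in PD + LIF. Rab25 and Cldn4 fell more in PD + LIF (difference -1.06 and -0.78), and Pkp2, a plakophilin of desmosomes, fell less (1.0). Uchl1 fell in both media, with a log2 difference of -2.14 in 2i + LIF, and Gldc fell by more in 2i + LIF (-2.35, difference 0.95, adjusted p = 0.0188).

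A few genes were called in 2i + LIF and not in PD + LIF, with a called difference between the media. Bex1 was at 217 and 233 FPKM in wild type and 76.9 and 78.5 FPKM in the knockout in 2i + LIF (-1.52, adjusted p = 0.000976), with a difference between media of 1.6 (adjusted p = 0.00608). H2-K1, a class I histocompatibility gene, fell in 2i + LIF (-1.37, difference 1.62) and was at 16.7 and 20.2 against 23.4 and 20.7 FPKM in PD + LIF (adjusted p = 0.19). The pseudogene Gm9763 went in opposite directions, listed at 0 in both knockout samples in 2i + LIF and in both wild-type samples in PD + LIF.

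**Figure D5:**
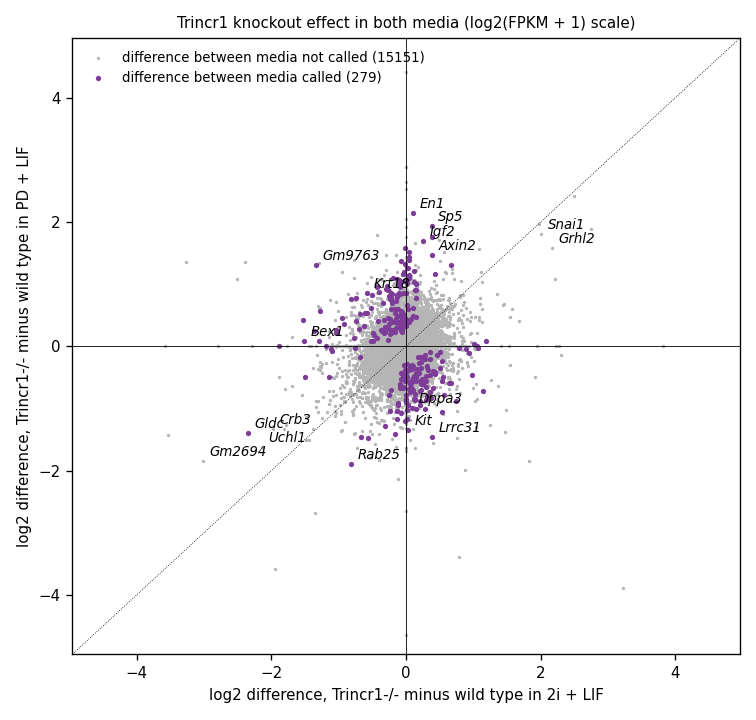
Log2 difference between Trincr1-/- and wild-type ESCs in PD + LIF (vertical axis) against the same in 2i + LIF (horizontal axis) for 15430 genes; the 279 genes whose effect differed between media are purple and the dotted line marks equal effects. En1, Sp5, Igf2 and Axin2 lie high near the vertical axis, Kit, Dppa3 and Lrrc31 low near it, and Snai1, Grhl2, Crb3 and Uchl1 lie along the dotted line.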

How the data were processed

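Poly(A) RNA was sequenced from 8 ESC samples, 2 for each genotype and medium, and the authors deposited normalized FPKM per gene. Per the labels and the study's methods, reads were aligned with STAR 2.5.0 and quantified with Cufflinks 2.2.1; the submitters' processing notes name mm9, while the coordinates of the table are those of GRCm38. Because FPKM were given, not counts, no count test was run. The TRIM71 pull-down and its input were deposited as FPKM per transcript and as a signal that the authors scaled to the mean of each dataset. A deposited column of their ratio was not used.

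The 15430 genes that averaged more than 0.2 FPKM were tested on log2(FPKM + 1) with limma 3.58.1 in R 4.3.3: 1 model with 4 groups and 4 residual degrees of freedom, a variance trend, contrasts within each medium and their difference, and Benjamini-Hochberg adjusted p under 0.05 ("called"). Where a gene had several entries (39 genes), the one with the highest mean was used. Alternatives were other constants (0.1 and 0.5 FPKM), filters and scalings, no trend, the replicate number as a block, and each PD + LIF sample left out. Tables and figures were made with Python 3.11.15. The code was tested on simulated data.

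Genes named are the target and the 20 largest called rises and falls that do not overlap between genotypes and reach 1 FPKM. Members of 34 gene lists and tested genes within 1 Mb of the target are named too. So are the 10 largest values each way of the difference between media. The TRIM71-bound genes named are the 2 largest differences among the bound genes counted, picked once values were known. The target is not among the bound genes counted. The members and lists were chosen with earlier results of these data known. Depth (10.3 to 14.1 M fragments) is an estimate from the smallest steps of FPKM. A few members of the lists and of the largest falls are counted but not reported by name here.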

Additional observations from a re-analysis of the deposited data

Results flagged for a closer look

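The effect of the knockout was larger or smaller in PD + LIF than in 2i + LIF, by the interaction term of the limma model with an adjusted p under 0.05, for 71 of the named genes. Each value is the log2 difference in PD + LIF minus that in 2i + LIF. En1, Igf2, Pax2, Hand1 and H19 were near 0 in 2i + LIF. For them a low level there and an effect that depends on the medium cannot be told apart. With 1 PD + LIF sample left out, between 13 and 32 genes of all those tested passed this test, so the calls depend on each PD + LIF sample. No 2i + LIF sample was left out.

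Among patterning and neural genes the value was positive, with 2.04 for En1, 1.47 for Pax2, 1.39 for Hes3 and 1.36 for Hand1. It was 1.14 for Sox4, 1.06 for Sox1 and 0.36 for Stmn2, and the formative genes Fgf15 and Dnmt3b had 1.17 and 0.93. The Wnt targets Sp5 and Axin2 had 1.56 and 1.09, and the BMP targets Id2 and Id3 had 1.58 and 1.46. In contrast, Tcf7 had -0.64 and Cdx2, which was called higher in 2i + LIF, had -1.11.

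The keratins Krt18, Krt19 and Krt8 had 1.43, 1.34 and 1.29, while the junction genes Rab25 and Cldn4 had -1.06 and -0.78 and Pkp2 had 1.0. For genes of the matrix and the cell surface the value was 1.11 for Col1a1, 0.90 for Col4a1, 0.32 for Lamc1 and 0.52 for Itga5, and it was -0.76 for Fn1. Ptn had 1.36, Cacna1g 1.6, Pcdh18 1.34 and Anxa2 0.65, while the receptor gene Kit had -1.37.

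Imprinted genes had 1.45 for Igf2, 1.12 for Cdkn1c, 1.08 for Grb10, 0.73 for Mest and 0.39 for Rian, and -0.92 for H19. The naive factors Dppa3, Tfcp2l1 and Esrrb had -1.08, -0.75 and -0.67, and the kinase genes Pim1 and Pim3 had -0.86 and -0.42.

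Metallothionein and glutathione genes had negative values, -0.74 for Mt1, -0.83 for Mt2, -0.52 for Gsr, -0.82 for Gstm1 and -0.42 for Gsta4. Among metabolic genes the value was -1.1 for Ldhb, -0.42 for Tdh, -0.42 for Amt, -0.40 for Asns and -1.25 for Acss1. It was positive for Slc2a1 (0.51), Idi1 (0.57) and Gldc (0.95), of which Gldc had its larger fall in 2i + LIF. Hspa5 had 0.60, H2-D1 1.2, Pdia3 0.33 and Calr 0.29, while Pdk4 had -1.29 and Nid2 -0.48. The value was 0.62 for Sgk1 and 1.22 for Cited2.

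Of the remaining genes Lrrc31 had -1.84, S100a13 -1.63 and Sept1 -0.90. Bex1 had 1.6, Bex4 0.64, Ngfrap1 0.43 and H2-K1 1.62, and the pseudogene Gm9763 had the largest value among these genes, 2.64.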

How the results depend on the processing

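The count of 1861 genes in PD + LIF was 1302 to 1949 under other scalings, added constants, filters, variance models and the block. It was 335 to 764 with 1 PD + LIF sample left out, 316 with the PD + LIF samples alone and 492 by a 2-fold rule on the group means, of which 320 are also called by limma; fewer samples leave fewer degrees of freedom. The count in 2i + LIF, 186, was 122 with no filter on low values, 91 to 113 with 1 PD + LIF sample left out, which changes the spread alone (no 2i + LIF sample was left out), and 0 with the 2i + LIF samples alone, where limma gave 2106 genes an unadjusted p under 0.05. The count of genes whose effect differed between media, 279, was 138 with no filter, 88 with no variance trend and 13 to 32 with 1 sample left out; the cause of the lower count with no trend was not tested. Of the distinct members of the gene lists 211 were called, and 71 to 124 with 1 sample left out. The share of TRIM71-bound genes called was 7.32% with an enrichment above 10. With the replicate number as a block, 1302, 111 and 39 genes were called in PD + LIF, in 2i + LIF and between media; same-numbered samples did not deviate together (correlations -0.054 to 0.0063), so the numbers were not taken as pairs.

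Over the 34 lists and their alternatives 189 medians kept their direction and moved little, 38 moved and 11 turned their sign. Leaving out 1 sample took the median of Bex family and Uchl1 from 0.079 to a range of -0.026 to 0.18. It took that of cell cycle genes from -0.00061 to a range of -0.019 to 0.027 and 0.0095 with scaling by medians of ratios. It took that of core pluripotency genes from -0.037 to a range of -0.13 to 0.077. It took that of two-cell-like genes from 0.014 to a range of -0.11 to 0.13. It took that of p53 targets from 0.015 to a range of -0.022 to 0.068. Genes that were not called turned their sign with 1 sample left out. Acvr2b, at 0.042, ranged from -0.073 to 0.16. Atf4, at 0.038, ranged from -0.0035 to 0.080. B2m, at -0.075, ranged from -0.19 to 0.036. Bex1, at 0.079, ranged from -0.026 to 0.18. Cdx1, at -0.11, ranged from -0.25 to 0.039. Ctgf, at -0.050, ranged from -0.18 to 0.076. Cyr61, at 0.11, ranged from -0.026 to 0.24. Gata4, at -0.0044, ranged from -0.15 to 0.14 and had 0.0026 with scaling by medians of ratios and 0.014 with quantile normalization. Il6st, at 0.043, ranged from -0.015 to 0.10. Mki67, at -0.010, ranged from -0.060 to 0.040 and had 0.00037 with scaling by medians of ratios. Ocln, at -0.32, ranged from -0.71 to 0.065. Stat3, at 0.13, ranged from -0.0070 to 0.27. Thy1, at -0.12, ranged from -0.36 to 0.11. Xbp1, at 0.063, ranged from -0.043 to 0.17. Zeb1, at -0.14, ranged from -0.28 to 0.0030.

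Depth limits genes at low levels: 1 fragment on a transcript of 1000 bases is worth 0.071 to 0.0849 FPKM in the PD + LIF samples, and differences near that size were not detectable. Of the 196 named genes that were called, 73 were called with each sample left out; over all named genes and alternatives the call was the same in 2648 of 3282 cases, lost in 609 and gained in 5.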

Other observations

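In the list of ATF4 and the unfolded protein response, 5 of 26 genes rose in Trincr1-/- ESCs in PD + LIF, 2 fell and 19 were not called, and 1 was called higher without Trincr1-/- replicate 1 or wild-type replicate 1. Calr, the chaperone calreticulin, was at 281 and 289 FPKM in wild type and 333 and 335 FPKM in the knockout (0.23, adjusted p = 0.00866), and Pdia3, a disulfide isomerase that is in the list of MHC class I and antigen processing, at 110.3 and 108 against 131 and 132 FPKM (0.26, adjusted p = 0.00861). Of the first list Pdia4 (0.19) and Hsp90b1 (0.14) rose too, while Atf4 (0.038) and Xbp1 (0.063), regulators of the stress response, were not called. The class I gene H2-D1 rose (8.85 and 9.09 against 13 and 13.5 FPKM, 0.52) and Irf1, an interferon-induced factor, fell (16.4 and 17.5 against 11.4 and 11.3 FPKM, -0.54), while B2m, the light chain of class I molecules, had -0.075 and was not called.

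Among FOXO targets, Pdk4, a kinase that inhibits pyruvate dehydrogenase, fell from 3.37 and 3.67 to 1.17 and 1.3 FPKM (-1.02, adjusted p = 0.00839), and Gadd45a, a growth arrest gene, rose from 25.8 and 31.6 to 51 and 48.2 FPKM (0.77). Among the cell cycle genes Ccnd2, a cyclin, rose at a low level (1.48 and 1.58 against 3.42 and 2.37 FPKM) and Top2a, a marker of dividing cells, fell a little (-0.17), while Mki67 was at 45.7 and 42.6 against 43.3 and 44.3 FPKM and was not called. In the basement membrane, Nid2, a nidogen, fell (89 and 87.5 against 72.9 and 74.4 FPKM, -0.26) where the laminin and collagen genes above rose. Of these genes Gadd45a, Ccnd2, Top2a, Pdk4, Nid2 and the genes of the paragraph above were each not called in at least 1 of the fits with a sample left out.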
